A study of Mus musculus with 4 samples.

Results

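The genes described here are 10 adaptors, kinases and other signalling genes that act directly behind the activating receptors of natural killer (NK) cells, together with the receptor NKp46. They were chosen by symbol, as Tyrobp, Hcst, Fcer1g, Cd247, Syk, Zap70, Lat2, Plcg2, Vav1 and Ncr1, and all 10 were found among the 35798 named genes of the count table. They were measured by poly-A RNA-seq in sorted Ly49H+ NK cells that carried either wild-type alleles (CD45.1 donors) or a knockout of TNFR2 (TNFR2 KO, CD45.2 donors). NK cells from both donors were transferred together into NSG mice, an immunodeficient strain without T, B or NK cells of its own that keeps its myeloid and erythroid cells, and all hosts were infected with murine cytomegalovirus (MCMV) a day later. On D3.5 after infection NK cells were enriched from spleen by negative selection, and Ly49H+ cells of each CD45 type were sorted. There were 2 libraries per genotype from pooled spleens of 3 hosts, and libraries of both genotypes that bear the same number came from the same pool. Whether the 2 numbers stand for separate pools is not stated, so the spread between duplicates may be technical. Genotype, CD45 allele and sort gate therefore changed together and cannot be told apart, and no uninfected group was analysed here. The strain of the CD45.1 donors and the sex of the mice are not given in the sources used here.

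Activating NK receptors have short tails that do not signal. They pair in the membrane with small adaptors, which carry either immunoreceptor tyrosine-based activation motifs (ITAMs), as in DAP12 (Tyrobp), FcRγ (Fcer1g) and CD3ζ (Cd247), or a motif that recruits PI3K and Grb2, as in DAP10 (Hcst). SRC family kinases phosphorylate the ITAMs, SYK and ZAP-70 bind the phosphorylated motifs, and linkers such as LAT and NTAL (Lat2) then gather phospholipase Cγ and the exchange factor VAV1, which leads to calcium flux, degranulation and cytokine production. Ly49H, the receptor for the MCMV protein m157, depends mainly on DAP12 with a contribution of DAP10. NKp46 uses FcRγ and CD3ζ, and the Fc receptor CD16 uses FcRγ. Myeloid cells use several of the same molecules, in particular DAP12, FcRγ, SYK, NTAL and PLCγ2.

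Libraries held between 32713256 and 39543650 counts. Tnfrsf1b, the targeted gene, measured 264.7 and 268.6 count-per-million (CPM) units, TMM-scaled, in wild-type, whereas TNFR2 KO held 55.1 and 58.6 CPM, so reads on it were fewer but not absent (log2-fold change -2.23). All 9 genes of an NK list were expressed in both genotypes. Under TMM all 9 were higher in TNFR2 KO at an adjusted p under 0.05, as were 24.2% of all genes. That list includes Ncr1 of the 10 genes and the partner receptors Klra8, Klrk1 and Klrb1c described below. Several others of the 9 are among the genes used for NK lineage scaling, described below, where the median of all genes moved to -0.78 (log2). Markers of other cell types were not absent either and moved with genotype. Over 20 macrophage or monocyte markers the summed level was 3123 to 3142 CPM in wild-type and 1971 to 1992 CPM in TNFR2 KO. At an adjusted p under 0.05, 17 of the 20 were lower, as were 26.2% of all genes. The 3 others, Itgam, Ccr2 and Ly6c2, are also expressed by NK cells and were higher. Summed levels were 10.7-fold lower for 14 neutrophil or granulocyte precursor markers (993.6 and 1011 against 91.6 and 94.9 CPM) and 12.3-fold for 10 mast cell or basophil markers (1276 and 1280 against 103.5 and 104.4 CPM). Prss34 (588.7 and 590.8 CPM) and Mcpt8 (305.1 and 301.0 CPM) made up most of this last sum in wild-type. Of the same list Cma1 was higher (log2-fold change 1.69) and Il4 did not pass the threshold (-0.39, adjusted p = 0.213), both named after their values were seen. Summed levels were 2.09-fold lower for 11 dendritic cell or class II genes (median log2-fold change -2.61), a sum in which Itgax, also expressed by NK cells, was higher (1.11) and Cd74 was lower (-3.57). They were 4.26-fold lower for 10 erythroid genes and 9.04-fold for 9 megakaryocyte or platelet genes. T cell markers summed to 1508 and 1527 CPM in wild-type and 1427 and 1458 CPM in TNFR2 KO. At an adjusted p under 0.05, 6 of 12 were lower and 2 higher (26.2% and 24.2% over all genes). In wild-type Cd4 (274.1 and 270.4 CPM) and Trbc2 (234.9 and 232.3 CPM) lay near the level of Ncr1 (258.3 and 255.5 CPM). In TNFR2 KO Cd4 held 185.6 and 184.9 CPM and Trbc2 223.3 and 236.6 CPM, against 511.3 and 510.5 CPM for Ncr1. Sums of 10 B cell and 10 stromal or endothelial markers were 1.29-fold and 1.19-fold higher in TNFR2 KO. However, only 6 of the 10 stromal or endothelial genes had enough counts to be tested, with a median log2-fold change of -0.89. Of these 6, 3 were lower and 1 higher at an adjusted p under 0.05 (26.2% and 24.2% over all genes). By mean CPM over the 4 libraries the leading genes of these lists were Itgam and Ccr2, Mpo and S100a9, Prss34 and Mcpt8, Cd74 and Itgax, Hba-a1 and Hbb-bs, Itga2b and Gp1bb, Trbc2 and Cd4, Ighm and Cd22, and Pecam1 and Kdr, and no marker was at 0 in all libraries. In wild-type alone Lyz2, named after its value was seen, stood above Itgam and Ccr2 (771.5 and 777.7 CPM, against 114.0 and 110.4 CPM in TNFR2 KO). In such bulk samples fewer cells of a type and less RNA per cell cannot be told apart, and the part of these cells in the results on the 10 genes was not tested.

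**Figure D1:**
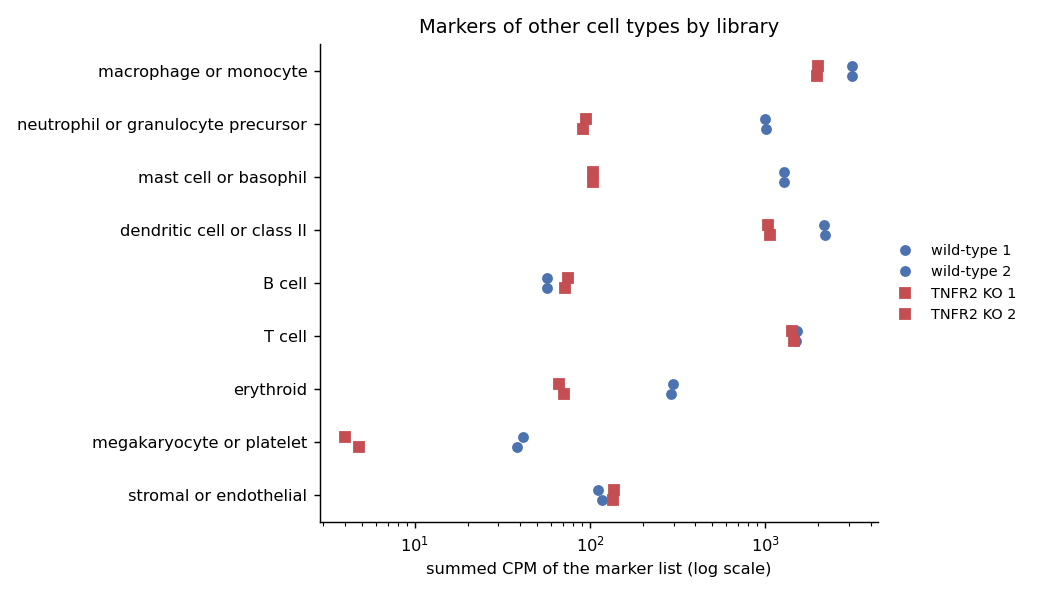
Summed CPM of marker lists for other cell types (horizontal log axis) in each library, with circles for wild-type and squares for TNFR2 KO. The neutrophil, mast cell and platelet lists lie about 10 times lower in TNFR2 KO (10.7-fold, 12.3-fold and 9.04-fold), and the T cell sums of both genotypes lie close together.

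Of the 10 genes, 9 were higher and 0 were lower in TNFR2 KO NK cells at an adjusted p under 0.05 with TMM scaling, against 24.2% higher and 26.2% lower (50.4% in either direction) of all 13822 genes tested. With scaling on NK lineage genes the count turned to 2 higher and 7 lower, where 1.04% of all genes were higher and 86.8% lower, as described below. In CPM, both TNFR2 KO libraries lay above both wild-type libraries for these 9 genes, as for 36.4% of all genes (37.7% lay below). The log2-fold change (TNFR2 KO over wild-type, TMM) was largest for the receptor gene at 0.99. Its median was 0.69 over the 4 adaptors, 0.24 over the 2 kinases and 0.13 over Lat2, Plcg2 and Vav1, beside -0.003 over all genes. None of the 10 genes passed the study's second threshold, an absolute log2-fold change over 1, while 13.3% of all genes passed both thresholds (1.56% higher and 11.8% lower). With DESeq2 the count past both thresholds was also 0, while 9 of the 10 genes had an unadjusted p under 0.05 in edgeR's test.

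**Figure D2:**
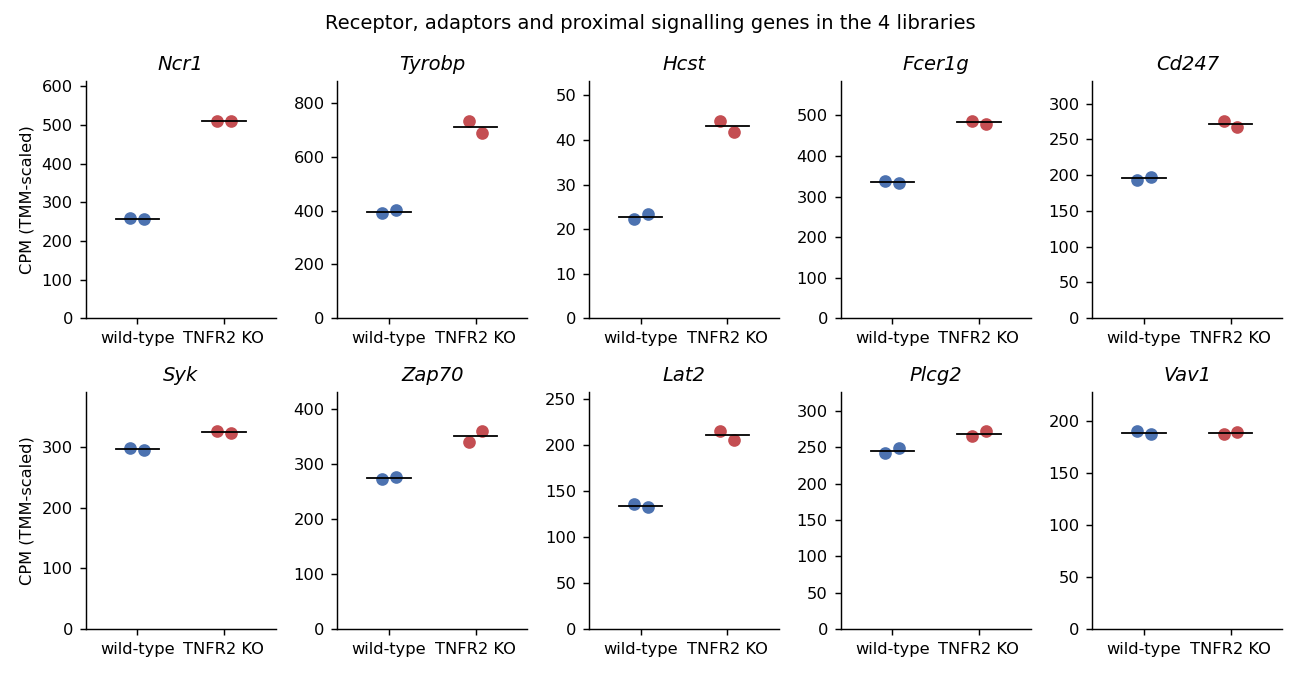
TMM-scaled CPM of the 10 genes (vertical axes start at 0 and differ between panels) by genotype, with a point per library and a line at the mean. The groups do not overlap except for Vav1, where the libraries lie between 187.6 and 190.3 CPM.

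Ncr1 encodes NKp46, an activating receptor that in mice marks NK cells and related innate lymphocytes. It measured 258.3 and 255.5 CPM in wild-type and 511.3 and 510.5 CPM in TNFR2 KO. Both TNFR2 KO libraries were thus near double the wild-type level, and the duplicates were almost equal. The log2-fold change was 0.99 (standard error 0.0245, adjusted p = 6.3e-12, from the quasi-likelihood test of edgeR and Benjamini-Hochberg adjustment like all adjusted p given here). This lies at the edge of the fold change threshold, which it passed narrowly with upper-quartile scaling, without wild-type replicate 1 (1.01) and without TNFR2 KO replicate 1. Only 2.03% of all genes had a higher log2-fold change. Ncr1 lies at chr7:4337724-4345164 (plus strand, GRCm38, the mm10 assembly).

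Tyrobp encodes DAP12, the ITAM adaptor of Ly49H. It measured 390.0 and 400.2 CPM in wild-type and 734.0 and 686.8 CPM in TNFR2 KO, 1.80-fold higher under TMM. The TNFR2 KO libraries differed from each other more than the wild-type ones did, but far less than the genotypes. The log2-fold change was 0.85 (standard error 0.0317, adjusted p = 3.65e-10), and leaving out single libraries moved it no further than to 0.81 and 0.90. Hcst, which encodes the PI3K-recruiting adaptor DAP10, measured 22.2 and 23.4 CPM in wild-type and 44.4 and 41.9 CPM in TNFR2 KO. Its log2-fold change was 0.92 (standard error 0.0571, adjusted p = 4.48e-08). With counts between 842 and 1716 per library, Hcst had the fewest reads of the 10 genes and the widest interval, from 0.80 to 1.05. Tyrobp (chr7:30413760-30417585, plus strand) and Hcst (chr7:30417712-30419854, minus strand) are neighbours whose 3′ ends face each other across 126 bases, and both had log2-fold changes of a like size. Neither shares a stretch of 31 bases with another annotated gene.

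Promoters are shown for Ncr1 and Hcst, the genes with the highest log2-fold changes of the 10. They give the 250 bases before the annotated start (RefSeq, GRCm38.p6), with matches to AGGAAGT, the core bound by ETS factors, or to TGTGGT, the core bound by RUNX factors, in capitals on either strand.
Ncr1, plus strand, chr7:4337474-4337723: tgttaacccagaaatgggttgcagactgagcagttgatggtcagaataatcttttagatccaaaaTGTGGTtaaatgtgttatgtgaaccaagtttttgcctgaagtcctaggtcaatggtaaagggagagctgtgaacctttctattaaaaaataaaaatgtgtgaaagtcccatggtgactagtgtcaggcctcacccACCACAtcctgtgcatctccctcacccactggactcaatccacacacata
Hcst, minus strand, chr7:30419855-30420104: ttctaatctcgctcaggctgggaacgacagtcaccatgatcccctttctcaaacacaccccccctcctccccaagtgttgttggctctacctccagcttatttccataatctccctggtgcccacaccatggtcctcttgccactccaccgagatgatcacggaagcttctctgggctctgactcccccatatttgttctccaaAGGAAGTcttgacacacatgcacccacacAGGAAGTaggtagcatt

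The Ncr1 window held 2 RUNX matches, 1 on each strand, and 0 ETS matches, while the Hcst window held 2 ETS matches and 0 RUNX matches. Of 32851 promoter windows of this length, 7.69% held an ETS match and 14.0% a RUNX match. Among the windows of the other genes, those of Cd247 and Vav1 held 1 ETS match each and those of Fcer1g, Syk, Zap70 and Plcg2 held none of either kind. Sequences matched for 8 of the 10 genes, the others being Tyrobp and Lat2. A match describes these letters only and says nothing of binding.

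Fcer1g and Cd247 encode FcRγ and CD3ζ, the ITAM chains that serve NKp46, and FcRγ also serves CD16. Fcer1g measured 337.6 and 334.2 CPM in wild-type and 487.4 and 478.0 CPM in TNFR2 KO (log2-fold change 0.52, standard error 0.0248, adjusted p = 3.53e-09). Cd247 measured 193.7 and 197.2 CPM against 276.3 and 266.9 CPM (log2-fold change 0.48, standard error 0.0288, adjusted p = 3.66e-08). Both chains were higher in each TNFR2 KO library under TMM scaling, and the 95% intervals of their log2-fold changes (0.47 to 0.58 and 0.41 to 0.54) lay below those of Tyrobp (0.78 to 0.92) and Hcst. Fcer1g lies at chr1:171229572-171234365 (minus strand) and Cd247 at chr1:165788681-165877277 (plus strand). The 3′ part of Cd247 overlaps Pou2f1 on the other strand, and 3.82% of its stretches of 31 bases also occur in other genes, most of all the non-coding Gm16565 that overlaps its 5′ end.

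Syk and Zap70 encode the tandem SH2 kinases that dock on phosphorylated ITAMs, of which SYK is the main form in myeloid and B cells, ZAP-70 the main form in T cells, and both are used in NK cells. Syk measured 298.2 and 295.4 CPM in wild-type and 325.6 and 322.8 CPM in TNFR2 KO (log2-fold change 0.13, standard error 0.0252, adjusted p = 0.00111). Zap70 measured 272.2 and 276.2 CPM against 340.4 and 359.1 CPM (log2-fold change 0.35, standard error 0.0300, adjusted p = 9.55e-07). The groups did not overlap for either kinase, and the interval of Syk (0.07 to 0.18) lay below that of Zap70 (0.29 to 0.42). Syk lies at chr13:52583173-52648792 and Zap70 at chr1:36761798-36782818 (both plus strand).

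Lat2 encodes NTAL, a membrane linker related to LAT. It measured 135.1 and 132.5 CPM in wild-type and 214.5 and 205.4 CPM in TNFR2 KO (log2-fold change 0.65, standard error 0.0317, adjusted p = 4.58e-09). Its interval (0.58 to 0.72) lay above those of Plcg2 and Vav1, the other downstream genes. Lat2 lies at chr5:134600022-134615025 (minus strand), where its 3′ end overlaps Rfc2 on the other strand. Plcg2 encodes phospholipase Cγ2, which releases the second messengers for calcium flux. It measured 242.0 and 248.2 CPM against 264.7 and 271.9 CPM (log2-fold change 0.13, standard error 0.0280, adjusted p = 0.00202). Without TMM factors, on library size alone, this call was lost (0.07, adjusted p = 0.0591). Vav1, whose product activates RAC downstream of both ITAM receptors and NKG2D, measured 190.3 and 187.7 CPM in wild-type and 187.6 and 189.4 CPM in TNFR2 KO. Its libraries overlapped between genotypes, with a log2-fold change of -0.004 and a 95% interval of -0.06 to 0.06 (adjusted p = 0.916). Plcg2 lies at chr8:117498291-117635142 and Vav1 at chr17:57279100-57328031 (both plus strand).

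These directions rest on how the libraries were scaled. TMM assumes that most genes do not change. Scaling instead on 29 NK lineage genes, none of them among the 10, moved the all-gene median to -0.78 (log2). On that scale Ncr1 and Hcst were still higher (0.21 and 0.14, adjusted p = 7.76e-06 and 0.0399), Tyrobp did not pass the threshold (0.07, adjusted p = 0.0884), and the other 7 genes were lower, from -0.13 for Lat2 to -0.78 for Vav1. Against the median of all genes under TMM, all of the 10 but Vav1 were higher. A change of scaling shifts the log2-fold changes of all genes by nearly the same amount. This position was therefore kept under NK lineage scaling by construction, which is no separate support. Under TMM 26 of the 29 NK lineage genes were themselves higher and 1 was lower, with a median log2-fold change of 0.78. They include Gzma (1.08), Gzmb (0.75), Il2rb (0.44), Klra7 (1.18) and Klrd1 (1.07). The log2-fold changes of Ncr1, Hcst and Tyrobp under TMM thus lay above the median of NK lineage genes, and those of the other 7 genes lay below it.

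**Figure D3:**
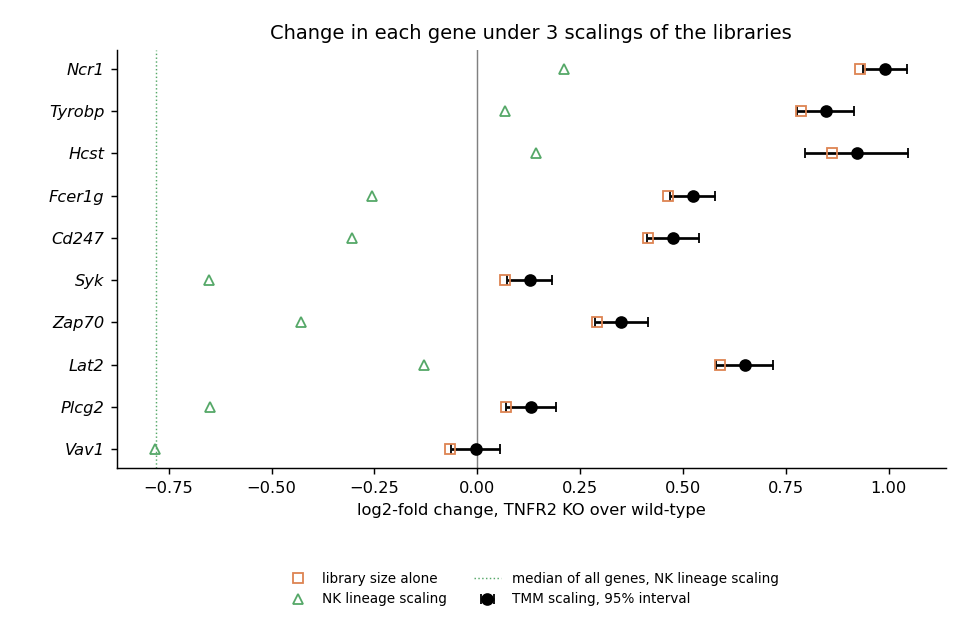
Log2-fold change, TNFR2 KO against wild-type (horizontal axis), for each of the 10 genes, with 95% intervals from edgeR under TMM scaling (circles) and the values with library size alone (squares) and with NK lineage scaling (triangles). The 3 scalings shift all genes by nearly the same amount, so the order of the genes is kept by construction. With NK lineage scaling, where the median of all genes is -0.78, 6 genes that were higher with TMM fall below 0.

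Ratios between genes within a library do not depend on scaling between libraries. Per kb of transcript, the ratio of Syk to Zap70 was 0.289 and 0.282 in the wild-type libraries and 0.252 and 0.237 in the TNFR2 KO libraries, so that both TNFR2 KO libraries held less Syk relative to Zap70. The ratio of Tyrobp to Hcst was 12.2 and 11.9 in wild-type and 11.5 and 11.4 in TNFR2 KO, and that of Fcer1g to Cd247 was 5.82 and 5.66 against 5.89 and 5.98. These ratios moved little beside the 1.80-fold and 1.90-fold rises of Tyrobp and Hcst. Counts of Tyrobp per count of Vav1 went from 2.05 and 2.13 in wild-type to 3.91 and 3.63 in TNFR2 KO, and those of Ncr1 from 1.36 and 1.36 to 2.73 and 2.70. Since Vav1 had a log2-fold change near 0 under TMM, these ratios return the TMM folds (1.80 and 1.99) and are no separate support for them. No test was run on the ratios, and an exact permutation test of 2 against 2 values could not give a two-sided p below 0.333.

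**Figure D4:**
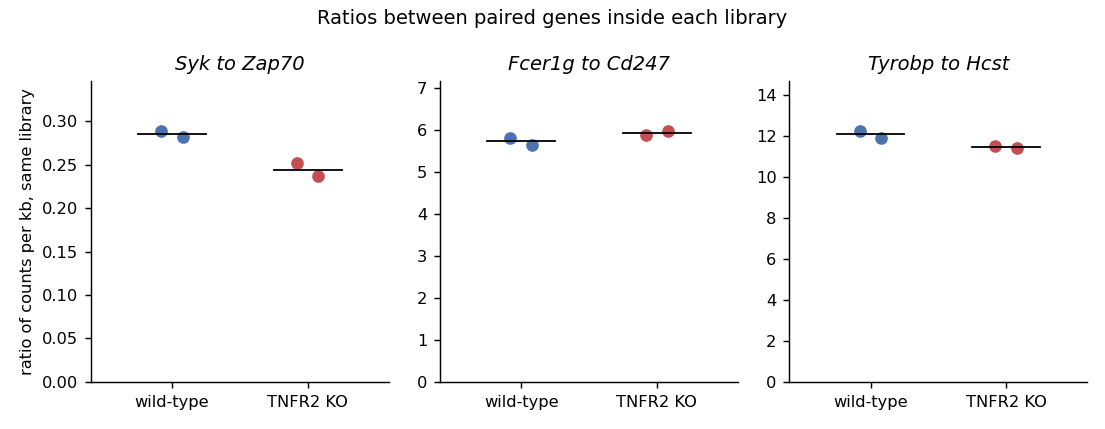
Ratio of counts per kb of transcript between paired genes inside each library (vertical axes start at 0), with a point per library and a line at the mean of each genotype. Syk to Zap70 lies at 0.285 on average in wild-type and 0.244 in TNFR2 KO, while the other 2 ratios shift little.

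Ordered by CPM per kb of transcript, Tyrobp (671.9 and 689.4 in wild-type, 1264 and 1183 in TNFR2 KO) and Fcer1g (497.5 and 492.5, 718.4 and 704.5) were the most abundant of the 10 in every library. In wild-type they were followed by Zap70, Ncr1, Lat2, Cd247, Vav1, Syk, Plcg2 and Hcst, and the last 3 lay between 54.95 and 58.2 CPM per kb and did not separate from each other. In TNFR2 KO Ncr1 (345.7 and 345.2) stood above Zap70 (252.3 and 266.1), and Hcst (109.8 and 103.7) had moved from the last to the 7th place, above Vav1, Syk and Plcg2. Syk and Plcg2 again overlapped there. The lengths are medians over annotated protein-coding transcripts and stand in for the lengths of the isoforms that these cells use. With the longest transcript, Ncr1 was above Zap70 in wild-type too, and Hcst was 6th in TNFR2 KO.

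The receptors that pair with these adaptors were examined in 2 lists. Of 8 NK cell receptors, 7 were higher and 1 was lower in TNFR2 KO at an adjusted p under 0.05, 5 of them past both thresholds, with a median log2-fold change of 1.15. Over all genes 24.2% were higher and 26.2% lower, and 1.56% were higher past both thresholds. Klra8, which encodes Ly49H and was used to sort the cells, measured 313.3 and 315.9 CPM in wild-type and 762.1 and 725.8 CPM in TNFR2 KO (log2-fold change 1.24). Klra4, which encodes the DAP12 partner Ly49D, rose from 211.4 and 209.8 to 534.7 and 540.6 CPM (1.35). Klrb1c, which encodes the FcRγ partner NK1.1, had a log2-fold change of 1.49, and Klrk1, which encodes the DAP10 partner NKG2D, one of 0.81. With NK lineage scaling 5 of the receptors were still higher, 2 were lower and Klrk1 did not pass the threshold (0.03, adjusted p = 0.267). Fcgr3, the Fc receptor chain of CD16 and named after its value was seen, was the receptor that fell, from 80.3 and 79.7 to 62.1 and 57.7 CPM (-0.42). Of their stretches of 31 bases, Klra8, Klrc2, Klrb1c, Klrb1a, Klra4 and Fcgr3 share between 14.3% and 55% with related genes, which makes their counts uncertain.

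Receptors through which myeloid cells use the same adaptors went the other way. Of 16 listed, 15 were tested, 13 were lower past both thresholds and 0 were higher, with a median log2-fold change of -2.87. Over all genes 11.8% were lower past both thresholds. Fcgr1, the high-affinity IgG receptor, fell from 79.6 and 79.3 CPM to 10.7 and 11.1 CPM (-2.87), and Fcgr4 fell from 71.7 and 67.5 to 8.30 and 7.93 CPM (-3.10). Fcer1a, the IgE receptor chain of basophils and mast cells, fell from 41.4 and 41.1 to 1.06 and 0.749 CPM (-5.48). Pira2 fell from 89.1 and 82.5 to 6.67 and 8.96 CPM (-3.47), but 96.7% of its sequence also occurs in other genes. Trem2 and Siglech, under 1 CPM in all libraries, did not pass the threshold, and Oscar did not pass the filter on low counts. Together the myeloid receptors held 0.0413% and 0.0394% of the counts in wild-type and 0.00492% and 0.00502% in TNFR2 KO, against 0.239% and 0.240% and then 0.331% and 0.326% for the 10 genes. Fcgr1, Fcer1a and Siglech are also on the marker lists above. With only the 8763 genes at a mean of at least 10 CPM over both genotypes, 6 of these receptors could be tested and all 6 were lower. All but Fcgr1 were under 10 CPM in TNFR2 KO and passed that filter through wild-type alone. Their direction there follows from the filter and is no separate support.

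Of 68 other genes of proximal signalling, 36 were higher, 19 were lower and 13 did not pass the threshold, with a median log2-fold change of 0.14 under TMM. Over all genes 24.2% were higher and 26.2% lower at this threshold, so the lower count lay near that share. The same shares stand beside the counts of the groups of these genes given next. With NK lineage scaling 2 were higher and 63 were lower, near the shares over all genes on that scale (1.04% higher and 86.8% lower). Under TMM 9 were lower and 1 was higher past both thresholds, close to the shares over all genes (11.8% and 1.56%). Among 10 SRC and TEC family kinases, 5 rose and 4 fell under TMM. The SRC kinases Lck and Fyn, which act in T and NK cells, had log2-fold changes of 0.31 each, and the TEC kinase Txk one of 0.84. Lyn, a SRC kinase of myeloid and B cells, fell from 156.6 and 154.2 to 76.6 and 76.3 CPM (-1.02), although 20.1% of its sequence also occurs in other genes, and Btk, a TEC kinase of the same cells, changed by -2.79. Lck, Fyn, Txk and Btk are named after their values were seen.

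Among 21 other adaptors and scaffolds, 11 rose and 8 fell under TMM. The SLAM adaptor EAT-2B (Sh2d1b2) rose from 8.25 and 7.62 to 17.7 and 18.6 CPM (1.19), although 18.3% of its sequence also occurs in other genes, mainly Sh2d1b1. Lat and Lcp2, the linker related to Lat2 and the scaffold SLP-76 behind it, were named after their values were seen and had log2-fold changes of -0.17 and -0.27 (adjusted p = 0.000289 and 1.42e-06). They were lower where Lat2 was higher under TMM, and with NK lineage scaling all 3 were lower. Among 19 phospholipase, PI3K, protein kinase C, exchange factor and GTPase genes, 9 rose and 4 fell under TMM. The GTPases Rac2 and Cdc42, which drive the actin changes of degranulation, had log2-fold changes of 0.33 and 0.18, and Prkcd, protein kinase Cδ, fell from 177.2 and 170.9 to 81.6 and 83.3 CPM (-1.08). Of 17 inhibitors, 10 rose and 3 fell under TMM. Ptprc, which encodes CD45 and differs in allele between the donors, measured 2374 and 2306 CPM in wild-type and 3311 and 3292 CPM in TNFR2 KO (0.50). Whether the allele difference affects the assignment of reads to Ptprc, and so this value, was not tested.

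The genes that were lower past both thresholds, listed after their values were seen, included Lyn, Btk, Blnk, Card9, Vav2, Rasgrp4, Prkcd and Dok3. Btk and Card9 are best known from myeloid or B cells. Most genes of the myeloid marker lists were lower in the same libraries, and the part of those cells in these values was not tested.

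**Figure D5:**
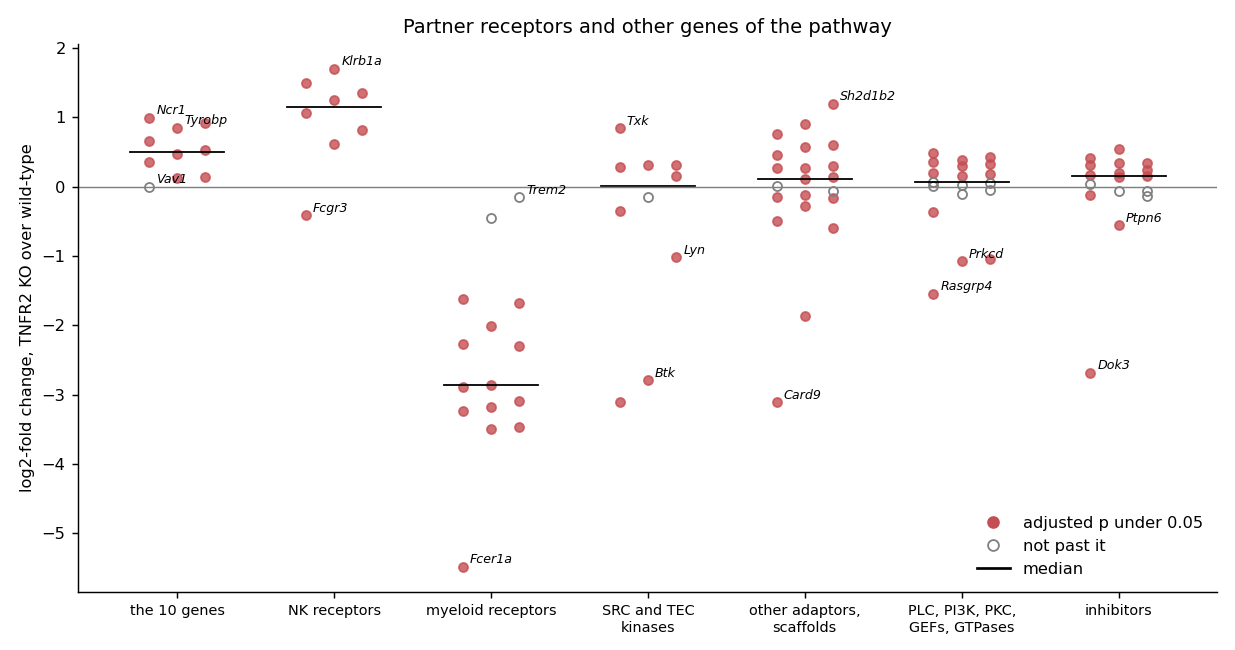
Log2-fold change, TNFR2 KO against wild-type (vertical axis, TMM scaling), for the 10 genes, their partner receptors and 4 groups of other pathway genes, with a point per gene, filled where the adjusted p from edgeR was under 0.05, and a line at the median. The NK receptors have a median of 1.15 and the myeloid receptors one of -2.87, and with NK lineage scaling 63 of the 68 other pathway genes are lower, as are 86.8% of all genes.

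Over the 4 libraries, the genes whose profile was nearest to that of Tyrobp were Setbp1, Ctla2b and Abcb1a, at Euclidean distances of 0.0301, 0.0386 and 0.0446 in log2 CPM centred on the mean of each gene, out of 8763 genes at a mean of at least 10 CPM. Their log2-fold changes were 0.84, 0.88 and 0.87. With 4 libraries in 2 groups such a likeness rests almost wholly on the size of the fold change.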

How the data were processed

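Poly-A, strand-specific, paired-end RNA-seq libraries were trimmed by the authors with Trimmomatic 1.4 and assigned to mm10 transcripts with kallisto 0.46.1. The authors summed the result per gene with Tximport and deposited each estimated count per gene symbol, not scaled between libraries. The sources used here do not name the transcript annotation. A row without a gene name, with 0.0559% to 0.0728% of the counts, was left out. Counts were rounded, filtered with filterByExpr (13822 genes kept), scaled with TMM and tested with edgeR 4.0.16 (R 4.3.3) in a quasi-likelihood fit with genotype as the term and Benjamini-Hochberg adjustment over all genes tested. Calls used an adjusted p under 0.05 and, as the study's second threshold, an absolute log2-fold change over 1. CPM are TMM-scaled, standard errors and 95% intervals come from the fit, and p-values measure only the spread between these libraries, which may be technical, since the study was a single experiment in duplicate. Duplicates differed by more than counting noise (mean chi-square per gene of 3.27 and 3.47, where noise alone gives about 1), and the common biological coefficient of variation was 3.33%.

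The labels give both genotypes the same replicate numbers and state that same-numbered libraries share a spleen pool, and this pairs them. Deviations from the group mean correlated at 0.0487 between same-numbered libraries. A fit with the replicate block was an alternative, beside DESeq2 1.42.0, other scalings and filters, and leaving out each library.

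The members and all gene lists were chosen with earlier results of these data known. Named genes are the 10 members, the targeted gene, in each list the 3 genes with the highest mean CPM and the 3 of lowest adjusted p, per direction, past both thresholds, the 2 highest of each marker list, and the 3 genes nearest to Tyrobp. Others are marked as named after their values were seen, and 1 gene is not reported here. Positions, transcript lengths and shared stretches of 31 bases come from GENCODE M21 on GRCm38, which stands in for the authors' annotation. The steps were tested on simulated data whose changes were larger than those of the 10 genes and balanced in direction. That test therefore does not cover changes as small as theirs or the choice of scaling. Plots were drawn with matplotlib 3.10.9 (Python 3.11.15).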

Additional observations from a re-analysis of the deposited data

How the results depend on the processing

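Over the 10 genes and 12 alternatives, 107 of the 120 log2-fold changes kept their direction and their side of the threshold. The replicate block gave 9 genes higher and 0 lower and changed no call on the 10 genes (0.85 for Tyrobp, 0.99 for Ncr1). NK lineage scaling gave 2 higher and 7 lower, with values of 0.0672 for Tyrobp, -0.26 for Fcer1g, -0.30 for Cd247, -0.65 for Syk, -0.43 for Zap70, -0.13 for Lat2, -0.65 for Plcg2 and -0.78 for Vav1. It also put 63 of the other proximal genes lower and 2 higher. By construction it centres the NK lineage genes as a set on no change, while single genes of that set can still differ. Library size alone gave 0.0693 for Plcg2. Vav1, near 0 in the reported fit, turned to 0.00486 with upper-quartile scaling and 0.00141 without a filter and ranged from -0.00597 to 0.014 when single libraries were left out. The number of the 10 genes past both thresholds became 1 (Ncr1) with upper-quartile scaling and ranged from 0 to 1 when single libraries were left out. With the filter at 10 CPM fewer genes were tested, and 6 myeloid receptors were lower, all but Fcgr1 having passed that filter through wild-type alone. With the longest transcript, the ratios were 0.453 and 0.388 for Syk to Zap70, 7.44 and 7.70 for Fcer1g to Cd247 and 12.9 and 12.2 for Tyrobp to Hcst (wild-type and TNFR2 KO). Over all genes, the count past both thresholds was 3802 with NK lineage scaling and 478 of 8763 with the filter at 10 CPM, against 1842. Genes under about 10 CPM, such as most myeloid receptors in TNFR2 KO, rest on the fewest counts.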
